A study of Mus musculus with 2 samples.

Results

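The genes described are the subunits of the oxidative phosphorylation system, together with the complex I assembly factors that share their symbols, in single cells of the GL261-bearing mouse brain. They were chosen by symbol alone: every mouse gene whose name starts with Ndufa, Ndufb, Ndufc, Ndufs, Ndufv, Uqcr, Cox4, Cox5, Cox6, Cox7, Cox8 or Atp5, and every mitochondrially encoded mt-Nd, mt-Co, mt-Cytb or mt-Atp gene, without pseudogenes marked -ps. This gave 102 members of the 32285 mouse genes in the files, 89 encoded in the nucleus and 13 in the mitochondrial DNA. The nuclear members comprise 36 subunits of complex I, 8 complex I assembly factors (Ndufaf), 8 subunits of complex III, 19 of complex IV, 17 of complex V and the supercomplex factor Cox7a2l. The mitochondrial members comprise 7 subunits of complex I, 1 of complex III, 3 of complex IV and 2 of complex V. Ndufa4 and Ndufa4l2 are counted with complex IV, where the Ndufa4 protein is now placed.

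Oxidative phosphorylation takes place in the inner mitochondrial membrane. Complexes I, III and IV pass electrons from NADH to oxygen and pump protons, and complex V, the ATP synthase, lets the protons flow back and makes ATP. Each of these 4 complexes is built from subunits of both genomes: the mitochondrial DNA encodes hydrophobic core subunits, and the nuclear genes encode the remaining core subunits and all of the small accessory ones, which are made in the cytosol and imported. The mitochondrial mRNAs are cut from long shared transcripts, whereas every nuclear subunit has its own promoter, and factors such as NRF1 and the ETS protein GABP are known regulators of many of them. Several complex IV subunits exist in tissue-restricted forms, among them Cox4i2, Cox6a2, Cox6b2, Cox7a1 and Cox8b.

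The libraries were made 24 days after implantation of GL261 cells, a glioma line of C57BL/6 origin, with 10x Genomics 3' chemistry from dissociated brain. One group of hosts is labelled C57BlL6 WT and the other Cacna1H-/- (Cav3.2KO), which lack Cav3.2, a T-type calcium channel; both groups carried the same implanted line. There was 1 library per group, and the sources used here do not give the number of animals behind each. Cacna1h itself gave 13 UMIs (0.25 CPM, UMIs per 1000000 mouse UMIs) in the library labelled wild type and 168 UMIs (1.67 CPM) in the library labelled knockout. This is not the direction that the labels would give. The counts cover all kept cells, with those of the implanted line among them, and the deleted part of the gene was not located here. They therefore cannot show which hosts lacked the gene. The libraries are therefore called by their labels throughout, and every direction below is that of the library labelled knockout against the library labelled wild type. Where 2 levels, UMI numbers, cell numbers or shares are joined by "and", the one with the wild type label comes first.

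The promoters of 4 nuclear members are shown as examples, 3 with and 1 without the letters of a known activator. The letters searched on both strands of the 250 bases before each gene's start were GCGCATGCG for NRF1, CCGGAAG for the ETS family and AAGATGGCG for YY1, and a gene counted once if any of its windows held them. The NRF1 letters were in 7 of the 73 nuclear members with a promoter entry (9.59%), against 2.19% of the 17491 protein-coding genes with an entry. The ETS letters were in 13 members (17.8%), against 10.2% of these protein-coding genes, and the YY1 letters in 1 member (1.37%), against 0.84%. At least 1 of the 3 was present in 18 members (24.7%) and in 12.6% of the protein-coding genes, so most members hold none of these exact letters in this window. The 150 bases just before the start are printed 5′ to 3′ on the gene's own strand from RefSeq, build GRCm38.p6, with a match on either strand in capitals. Atp5k and Ndufaf4 each hold an NRF1 palindrome, in which the matches of both strands overlap; Cox6b1, the widely expressed form of a complex IV subunit, holds an ETS match read on the opposite strand; its tissue-restricted paralogue Cox6b2 holds no match.
Atp5k (chr5:108434400-108434549, minus strand): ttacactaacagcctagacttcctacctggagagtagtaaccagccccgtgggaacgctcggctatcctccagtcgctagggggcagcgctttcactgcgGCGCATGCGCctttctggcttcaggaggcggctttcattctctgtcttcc
Ndufaf4 (chr4:24897933-24898082, plus strand): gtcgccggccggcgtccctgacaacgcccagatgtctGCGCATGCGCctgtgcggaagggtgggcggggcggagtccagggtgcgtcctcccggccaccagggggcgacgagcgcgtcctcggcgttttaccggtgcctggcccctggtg
Cox6b1 (chr7:30626115-30626264, minus strand): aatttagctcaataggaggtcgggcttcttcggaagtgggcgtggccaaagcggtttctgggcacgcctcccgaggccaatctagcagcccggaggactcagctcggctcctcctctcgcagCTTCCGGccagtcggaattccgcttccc
Cox6b2 (chr7:4753095-4753244, minus strand): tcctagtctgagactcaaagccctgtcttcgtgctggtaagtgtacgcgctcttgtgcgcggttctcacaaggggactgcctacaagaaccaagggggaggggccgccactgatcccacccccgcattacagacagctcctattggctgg

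The cells kept had at least 500 mouse genes and at most 10% mitochondrial UMIs, a limit that also caps the mitochondrial members. These were 3110 of 7382 barcodes and 6575 of 8369, with medians of 12522.5 and 11071 UMIs, and 7 kept barcodes were shared. Barcodes under 200 UMIs, which hold mainly free RNA, numbered 2464 and 85. Xist, expressed from an inactive X chromosome, had 26 and 39727 UMIs, and Y-linked genes 7596 and 3644, so the library labelled knockout held both. Cells were named from fixed markers. The 8 classes compared were tumour-like (692 and 1098 cells), T cell-like (620 and 1609), NK cell-like (270 and 637), B cell-like (61 and 294), dendritic-like (264 and 378), plasmacytoid dendritic-like (62 and 212), monocyte/macrophage-like (572 and 943) and microglia-like (80 and 373). UMIs were summed per class and library and are given as CPM. With 1 library per group there is no test and no p-value: all intervals are exact 95% intervals that cover counting error only, and a difference between the groups cannot be told apart from one between these libraries.

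Nuclear subunit mRNA made up the largest share in tumour-like cells. The 89 nuclear members summed to 21320.4 and 22886 CPM in these cells, against 9484 to 15519 CPM and 12409 to 15809 CPM in the 7 other classes. The lowest nuclear sum was in B cell-like cells for the wild type label (9484 CPM) and in microglia-like cells for the knockout label (12409 CPM). Of the 83 nuclear members with at least 100 UMIs over the 8 classes in each library, 57 had their highest level of the 8 classes in tumour-like cells in both libraries, while 32.1% of all genes did. A level at least 1.5-fold above the median of the other classes was reached by 40 of the 83, and by 42.4% of all genes, so this share was near the background. The lowest level was in B cell-like cells for 19 members (5.15% of all genes) and in microglia-like cells for 15 (4.99% of all genes). Highest elsewhere were Atp5e and Ndufs4 in NK cell-like cells, Cox7a2l in dendritic-like cells, Ndufaf7 in microglia-like cells, Cox5a, Atp5l and Uqcrc1 in monocyte/macrophage-like cells, and Cox6a2, Cox4i1, Ndufa3 and Ndufs8 in plasmacytoid dendritic-like cells.

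The mitochondrial members were ordered differently. Their sum was highest in microglia-like cells under the wild type label (29290 CPM) and in B cell-like cells under the knockout label (26782 CPM, with 26683 CPM in plasmacytoid dendritic-like cells), and lowest in dendritic-like cells (17797 and 15007 CPM) with tumour-like cells next (17979 and 17182 CPM). Mitochondrial members outnumbered nuclear ones in 7 of the 8 classes, with mitochondrial-to-nuclear ratios from 1.36 (dendritic-like) to 2.78 (microglia-like) under the wild type label and from 1.10 (dendritic-like) to 2.10 (B cell-like) under the knockout label. Tumour-like cells alone among the 8 had less mitochondrial than nuclear subunit mRNA, with ratios of 0.84 and 0.75. Cell by cell, 35.1% and 24.9% of tumour-like cells held more mitochondrial than nuclear member UMIs, against 98.4% and 96.9% of B cell-like cells. Among the 13 genes, microglia-like cells were the highest class in both libraries for 5 (9.18% of all genes), and dendritic-like cells the lowest for 6 (5.85% of all genes) and tumour-like cells for 3 (9.96% of all genes). Tumour-like cells were the deepest class, with medians of 30918 and 26640 UMIs per cell, and B cell-like cells of the library labelled wild type the shallowest (3743 UMIs); the part of depth in these shares was not tested.

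**Figure D1:**
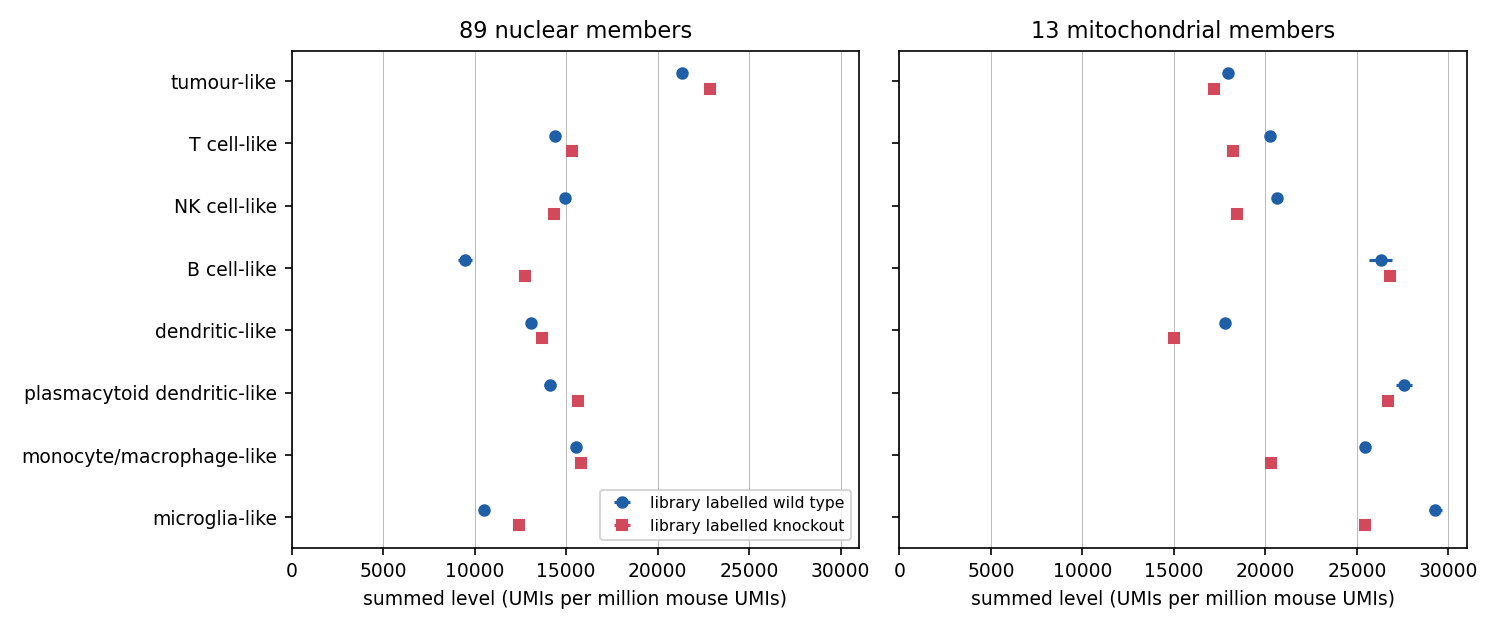
Summed level of the 89 nuclear members (left) and the 13 mitochondrial members (right) in CPM for the 8 cell classes, one point per library with its exact 95% counting interval. Tumour-like cells stand highest for the nuclear sum (21320.4 and 22886 CPM), while microglia-like and B cell-like cells stand highest for the mitochondrial sum.

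Between the labels the nuclear and mitochondrial sums went in opposite directions in most classes. The nuclear sum was higher under the knockout label in 7 of 8 classes and the mitochondrial sum in 1 of 8. In tumour-like cells the nuclear log2 ratio was 0.10 (interval 0.10 to 0.11) and the mitochondrial one -0.07 (-0.07 to -0.06). T cell-like cells had 0.09 (0.08 to 0.10) and -0.15 (-0.16 to -0.15). The nuclear sum was lower under the knockout label in NK cell-like cells only, at 14960 against 14345 CPM (log2 ratio -0.06, interval -0.08 to -0.04). This direction held for the summed UMIs of gated cells: the ratio was 0.023 with Leiden clusters in place of the gates and 0.035 as a mean over cells, and the median nuclear share per cell was 1.32% and 1.40%. B cell-like cells had the largest nuclear difference of the gated sums, 9484 against 12757 CPM (0.43, interval 0.37 to 0.49), from 61 cells and 2403 nuclear member UMIs in the library labelled wild type. It was 0.22 in cells with Y-linked and no Xist UMIs (50 and 54 cells), where microglia-like cells had -0.27 (64 and 86 cells), and 0.25 for members whose shortest coding transcript is over 600 bases. Between them lay microglia-like (0.24), plasmacytoid dendritic-like (0.15), dendritic-like (0.06) and, lowest of these, monocyte/macrophage-like cells (0.03).

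The mitochondrial sum of gated cells differed most in monocyte/macrophage-like cells, at 25459 against 20292 CPM (log2 ratio -0.33), followed by dendritic-like (-0.25), microglia-like (-0.20) and NK cell-like cells (-0.16). This order was not stable. In cells with Y-linked and no Xist UMIs the ratio was -0.89 in microglia-like (64 and 86 cells), -0.51 in monocyte/macrophage-like (508 and 140), -0.20 in NK cell-like (212 and 77) and -0.10 in dendritic-like cells (239 and 43), and with clusters weighted alike it was -0.14 in monocyte/macrophage-like cells. B cell-like cells, the exception, had 26296 and 26782 CPM, with an interval that spans 0 (-0.01 to 0.06). The mitochondrial share in barcodes under 200 UMIs was also lower under the knockout label (5.64% and 3.76%), and its part in these values was not tested. The mitochondrial-to-nuclear ratio was lower under the knockout label in all 8 classes, by 0.10 (NK cell-like) to 0.44 (microglia-like) on the log2 scale. This direction did not hold in every class without short nuclear members. For nuclear members whose shortest coding transcript is over 600 bases, the log2 ratio was -0.11 in tumour-like and -0.26 in NK cell-like cells. Both values lay below the mitochondrial ratio of the same class. The share of T cell-like cells with more mitochondrial than nuclear member UMIs was 79.0% and 59.0%, that of monocyte/macrophage-like cells 74.7% and 54.6%, and that of dendritic-like cells 61.7% and 40.5%. Over all kept cells the nuclear sum was nearly equal (17571 and 17595 CPM, log2 ratio 0.00), and tumour-like cells, the class with the highest nuclear level, made up 22.3% and 16.7% of the kept cells.

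Clusters within the classes were not alike in their sums or their shares. Monocyte/macrophage-like cells fell into 3 clusters with enough cells. The cluster led by Adamdec1, H2-M2 and Ocstamp held 315 of 572 and 218 of 943 cells, and it had the higher mitochondrial sums (29165 and 27468 CPM). The cluster led by Clec4d, Apoc2 and Clec4e held 205 and 574 cells, with 16924 and 15811 CPM. Within these 3 clusters the mitochondrial log2 ratios were -0.10, -0.23 and -0.09, each smaller in size than the -0.33 over the whole class, so this class value moves by over 1.5 times with the cluster shares. In tumour-like cells the nuclear log2 ratio was 0.10, 0.23, 0.30 and 0.18 in the 4 clusters and the mitochondrial one -0.06, -0.18, -0.11 and -0.23; with the clusters weighted alike the class values become 0.20 and -0.14 in place of 0.10 and -0.07. In T cell-like cells all 6 clusters had a higher nuclear sum under the knockout label (log2 ratios 0.06 to 0.33) and 4 of 6 a lower mitochondrial one.

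The 13 mitochondrial genes were not shifted alike. mt-Co2, a catalytic subunit of complex IV that takes electrons from cytochrome c, was lower under the knockout label in 7 of 8 classes and level in B cell-like cells (log2 ratio -0.000071), with 3034 and 2599 CPM in tumour-like cells and 4299 and 3256 CPM in monocyte/macrophage-like cells. mt-Atp6, the subunit of the ATP synthase that carries its proton channel, was lower in all 8 (log2 ratios -0.42 to -0.04), with 3643 and 3187 CPM in tumour-like cells. mt-Co1, which holds the oxygen-reducing site of complex IV, was lower in 7 of 8 classes (-0.23 to 0.06), and mt-Co3, the remaining large core subunit, in 7 of 8 (-0.34 to 0.04). Tumour-like cells were the exception for mt-Co3, with 2758 and 2838 CPM. mt-Cytb, the only mitochondrial subunit of complex III, lay between -0.36 and 0.02 and was almost equal in tumour-like cells (2358 and 2328 CPM).

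Among the larger membrane subunits of complex I, mt-Nd1, mt-Nd2 and mt-Nd4 were higher in tumour-like cells for the library labelled knockout and lower in most other classes. mt-Nd1 had 741 and 904 CPM in tumour-like cells (log2 ratio 0.29) but 1246 and 874 CPM in NK cell-like cells (-0.51) and 961 and 686 CPM in dendritic-like cells (-0.49). mt-Nd2 had 754 and 850.0 CPM in tumour-like cells and mt-Nd4 742 and 779 CPM. mt-Nd5 was nearly level in tumour-like cells (183 and 185 CPM) and ranged from -0.15 to 0.35 over the classes. The smallest complex I members went the other way from mt-Co2 and mt-Atp6: mt-Nd3 (44 and 68 CPM in tumour-like cells, log2 ratio 0.63) and mt-Nd4l (45 and 75 CPM, 0.75) were higher under the knockout label in all 8 classes, although the interval of mt-Nd3 in NK cell-like cells (-0.17 to 0.25) spans 0. mt-Nd6, the only member read from the other strand of the mitochondrial DNA, had 35 and 51 CPM in tumour-like cells (0.53), 16 and 24 CPM in monocyte/macrophage-like cells (0.66) and 37 and 26 CPM in microglia-like cells (-0.49, interval -1.07 to 0.12). mt-Atp8 was higher in each of the 7 classes where it was measured (0.16 to 2.37), and its largest value, in B cell-like cells, rests on 2 and 106 UMIs. mt-Atp8, mt-Nd4l, mt-Nd3 and mt-Nd6 are 204, 297, 348 and 519 bases long. They are the only mitochondrial members of at most 600 bases, and short genes of all kinds were more often higher under the knockout label. The reading frames of mt-Atp8 and mt-Atp6 overlap, as do those of mt-Nd4l and mt-Nd4, and the sources used here do not say how their shared reads were counted, so the values of these pairs are uncertain.

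**Figure D2:**
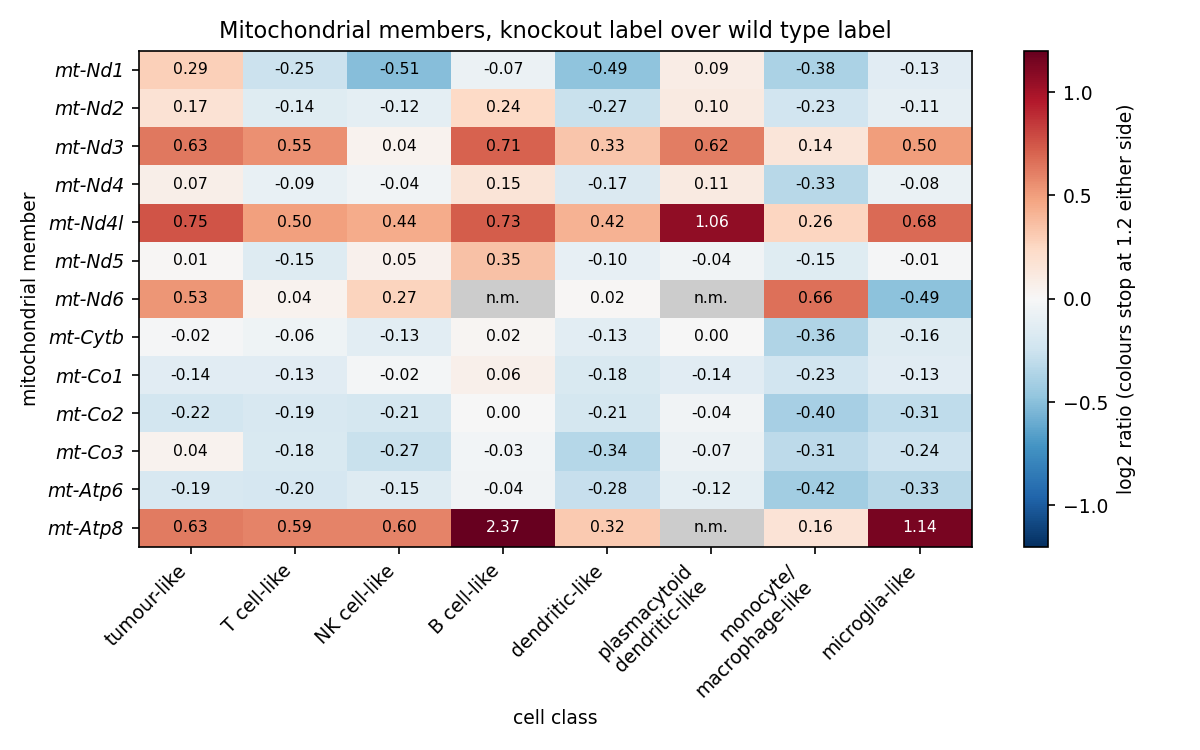
Log2 ratio of the level under the knockout label over that under the wild type label for the 13 mitochondrial members (rows) in the 8 classes (columns), red for higher and blue for lower, with the value in each cell; n.m. marks a gene with fewer than 100 UMIs in the class. The rows of mt-Nd3 and mt-Nd4l are above 0 in all 8 classes and that of mt-Atp6 below 0 in all 8, with mt-Co2 below 0 in all but B cell-like cells.

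Counts of members past a fixed size give the breadth of the differences. A member was measured in a class if it had at least 100 UMIs there over both libraries, which 73 (B cell-like) to 84 (tumour-like) of the 89 had; Cox8b and Cox8c had no UMI in the kept cells, and Cox7b2 and Ndufa4l2 stayed under 100 in every class. In tumour-like cells 10 of 84 nuclear members were at least 1.5-fold above the wild type label and 0 at least 1.5-fold below it, against 11.1% and 6.75% of all genes. In T cell-like cells 6 of 82 were higher and 1 lower (4.87% and 2.38% of all genes). NK cell-like cells had 2 higher and 7 lower of 78 (7.33% and 7.57%), dendritic-like cells 5 higher and 2 lower of 79 (8.05% and 8.41%), and monocyte/macrophage-like cells 1 higher and 2 lower of 82 (6.0% and 5.6%). The shares of higher members in these 5 classes were near those of all genes or below them, with the largest excess in T cell-like cells. They were above the background in B cell-like cells, with 30 higher and 1 lower of 73 (13.7% and 11.5%), in microglia-like cells, with 17 higher and 1 lower of 79 (5.13% and 5.47%), and in plasmacytoid dendritic-like cells, with 11 higher and 1 lower of 75 (6.18% and 4.9%). These 3 classes had the fewest cells in the library labelled wild type (61, 80 and 62). Of the 13 mitochondrial members 3 passed 1.5-fold upward in tumour-like cells (mt-Nd3, mt-Nd4l and mt-Atp8), 0 to 3 in the other classes, and 0 downward in any class. mt-Nd3, mt-Nd4l and mt-Atp8 have transcripts of at most 600 bases, and 36.4% of all such genes passed 1.5-fold upward in tumour-like cells.

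Grouped by their place in the complexes, a grouping made after the values were seen, the groups of nuclear subunits did not all lie on the same side of 0. In complex I, the 7 nuclear core subunits, which carry the flavin and the iron-sulphur clusters, summed to a lower level under the knockout label in all 8 classes: 804 and 741 CPM in tumour-like cells (log2 ratio -0.12), 570 and 492 CPM in T cell-like cells (-0.21) and 627 and 471 CPM in NK cell-like cells (-0.41). The B cell-like value was near 0 (-0.03, interval -0.30 to 0.26). Ndufv1, which binds NADH and the flavin, was lower in all 8 classes, with 49 and 28 CPM in dendritic-like cells (-0.80) and 60 and 44 CPM in T cell-like cells (-0.44). Its partner Ndufv2 was also lower in all 8 (-0.41 to -0.05). Ndufs1, the largest subunit, had its lowest value in microglia-like cells, with 53 and 30 CPM (-0.80, interval -1.30 to -0.28).

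The 29 accessory subunits of complex I summed higher under the knockout label in 7 of 8 classes, from -0.06 in NK cell-like cells to 0.44 in B cell-like cells, with 6127 and 6805 CPM in tumour-like cells (0.15). They were not uniform. Ndufa1 (ENSMUSG00000016427, chrX:37187588-37191163, minus strand, GRCm38), a small membrane subunit needed for assembly, had the highest ratio of all members in tumour-like cells, with 76 and 163 CPM (log2 ratio 1.11, interval 1.03 to 1.18), and was higher in all 8 classes (0.42 to 1.11). It is X-linked, as are Ndufb11 (0.38 in tumour-like cells) and Cox7b (0.20); the part of the unequal Xist UMIs in these values was not tested. Ndufa3, another single-pass membrane subunit, was higher in all 8 as well, with 63 and 110 CPM in tumour-like cells (0.80), 66 and 111 CPM in T cell-like cells (0.75) and 64 and 110 CPM in NK cell-like cells (0.78). Ndufa2 and Ndufc1 complete the accessory subunits at least 1.5-fold higher in tumour-like cells (0.62 and 0.60).

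Other accessory subunits lay on the opposite side. Ndufb10 was lower in all 8 classes, with 154 and 116 CPM in T cell-like cells (-0.40) and 169 and 120 CPM in monocyte/macrophage-like cells (-0.49). Ndufb5 was lower in 7, including microglia-like cells (164 and 127 CPM, -0.37), and Ndufa8 in 7, including dendritic-like cells (104 and 70 CPM, -0.57). Ndufb8 was lower in 7 and Ndufa9, which sits where the arms of complex I meet, also in 7, with 73 and 45 CPM in NK cell-like cells (-0.70). Ndufa5 was higher in all 8 classes, with 53 and 80 CPM in monocyte/macrophage-like cells (0.58), and Ndufa6 likewise, with 112 and 168 CPM in NK cell-like cells (0.59). In plasmacytoid dendritic-like cells Ndufb3 had 61 and 112 CPM (0.88) and the core subunit Ndufs3 137 and 94 CPM (-0.55). The B cell-like extremes Ndufb2 (1.65) and Ndufs6 (1.32) rest on 5 and 7 UMIs under the wild type label.

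The assembly factors, which build complex I without staying in it, were low in level. Their sum was 323 and 335 CPM in tumour-like cells and 143 to 189 and 145 to 194 CPM in the other 7 classes. Ndufaf8 was higher under the knockout label in all 8 classes, with 66 and 105 CPM in tumour-like cells (0.67). Ndufaf6 had the lowest ratio of any member in tumour-like cells, with 38 and 27 CPM (-0.50), and Ndufaf5 the lowest in T cell-like cells, with 18 and 11 CPM (-0.71, interval -1.06 to -0.35). Ndufaf4 had 83 and 74 CPM in tumour-like cells and at most 28 and 32 CPM in the other 7 classes. The supercomplex factor Cox7a2l ranged from -0.52 in dendritic-like cells to 0.04 in NK cell-like cells.

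In complex III the core and the small subunits lay on opposite sides of 0. Uqcrc1 and Uqcrc2, the large core proteins, and Uqcrfs1, the Rieske iron-sulphur protein, summed lower under the knockout label in all 8 classes (-0.25 to -0.09; the intervals of NK cell-like, B cell-like, plasmacytoid dendritic-like and microglia-like cells span 0), with 294 and 247 CPM in tumour-like cells and 332 and 292 CPM in T cell-like cells. Uqcrfs1 had 97 and 72 CPM in tumour-like cells (-0.43), 149.97 and 101 CPM in B cell-like cells (-0.58, interval -1.07 to -0.05) and 144 and 108 CPM in plasmacytoid dendritic-like cells (-0.42). Uqcrc2 was lower in all 8 classes (-0.37 to -0.01). The 5 small subunits Uqcr10, Uqcr11, Uqcrb, Uqcrh and Uqcrq summed higher in all 8 (0.20 to 0.53), with 1400 and 1759 CPM in tumour-like cells. Uqcr11 had 225 and 352 CPM in tumour-like cells (0.64), and Uqcrb, which lines the quinone pocket, 77 and 149.97 CPM in microglia-like cells (0.96).

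The 19 nuclear complex IV members, which surround the catalytic core and carry none of its copper or haem, summed higher under the knockout label in all 8 classes (0.04 to 0.50), with 5116 and 5967 CPM in tumour-like cells (0.22). Cox7c was higher in all 8 classes (0.49 to 0.99), with 282 and 438 CPM in monocyte/macrophage-like cells (0.63). Cox8a, the widely expressed form of the smallest subunit, was higher in all 8 (0.24 to 0.64), with 784 and 1000.5 CPM in tumour-like cells. Cox7a2 (0.24 to 0.70) and Cox6b1 (0.20 to 0.68) were also higher in all 8. Cox4i1, the widely expressed form of the regulatory subunit that binds ATP, was lower in 7 of 8, with 791 and 679 CPM in tumour-like cells (-0.22). Cox5a, its neighbour in the complex, had 455 and 290 CPM in NK cell-like cells (-0.65). Cox6a1 was within 0.20 of 0 in 6 of the classes and reached 0.69 in B cell-like cells.

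In complex V the small membrane subunits lay above 0 and the other groups mostly below. The 5 small membrane subunits Atp5k, Atp5j2, Atp5l, Atp5md and Atp5mpl, which sit at the edge of the membrane part and take part in the pairing of ATP synthases, summed higher under the knockout label in all 8 classes (0.31 to 0.69), with 1050.3 and 1552 CPM in tumour-like cells (0.56) and 805 and 1152 CPM in T cell-like cells (0.52). Atp5k was higher in every class, with 97 and 162 CPM in tumour-like cells (0.74), 68 and 117 CPM in dendritic-like cells (0.79) and 48 and 113 CPM in microglia-like cells (1.24). Atp5md had 226 and 364 CPM in tumour-like cells (0.69) and 68 and 137 CPM in plasmacytoid dendritic-like cells (1.01), and Atp5mpl 136 and 216 CPM in tumour-like cells (0.67).

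The rotor ring, the catalytic head and the stalk summed lower in most classes, with single members on both sides of 0. Atp5g1, Atp5g2 and Atp5g3 encode the same c subunit of the ring, and their sum was lower under the knockout label in 6 of 8 classes, with 1826 and 1601 CPM in tumour-like cells (-0.19) and 977 and 704 CPM in NK cell-like cells (-0.47). Among these 6, the interval of plasmacytoid dendritic-like cells (-0.29 to 0.01) spans 0. Atp5g3 was lower in 7 of 8, with 284 and 209 CPM in tumour-like cells (-0.44), 224 and 131 CPM in NK cell-like cells (-0.78), 214 and 162 CPM in T cell-like cells (-0.40) and 170 and 112 CPM in plasmacytoid dendritic-like cells (-0.60). The 5 subunits of the F1 head (Atp5a1, Atp5b, Atp5c1, Atp5d and Atp5e) summed lower in 6 of 8, although the intervals of T cell-like, dendritic-like and plasmacytoid dendritic-like cells span 0, with 2518 and 2169 CPM in tumour-like cells (-0.22), where Atp5a1, the alpha subunit, had 572 and 415 CPM (-0.46). Within the head, Atp5e, the small epsilon subunit, was higher in all 8 classes, with 225 and 368 CPM in tumour-like cells (0.71), 337 and 534 CPM in T cell-like cells (0.67) and 364 and 535 CPM in monocyte/macrophage-like cells (0.56). The 4 peripheral stalk subunits (Atp5f1, Atp5h, Atp5j and Atp5o) were lower in 6 of 8, although the interval of plasmacytoid dendritic-like cells (-0.260 to 0.003) spans 0. Atp5o had 250.5 and 159 CPM in NK cell-like cells (-0.66).

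**Figure D3:**
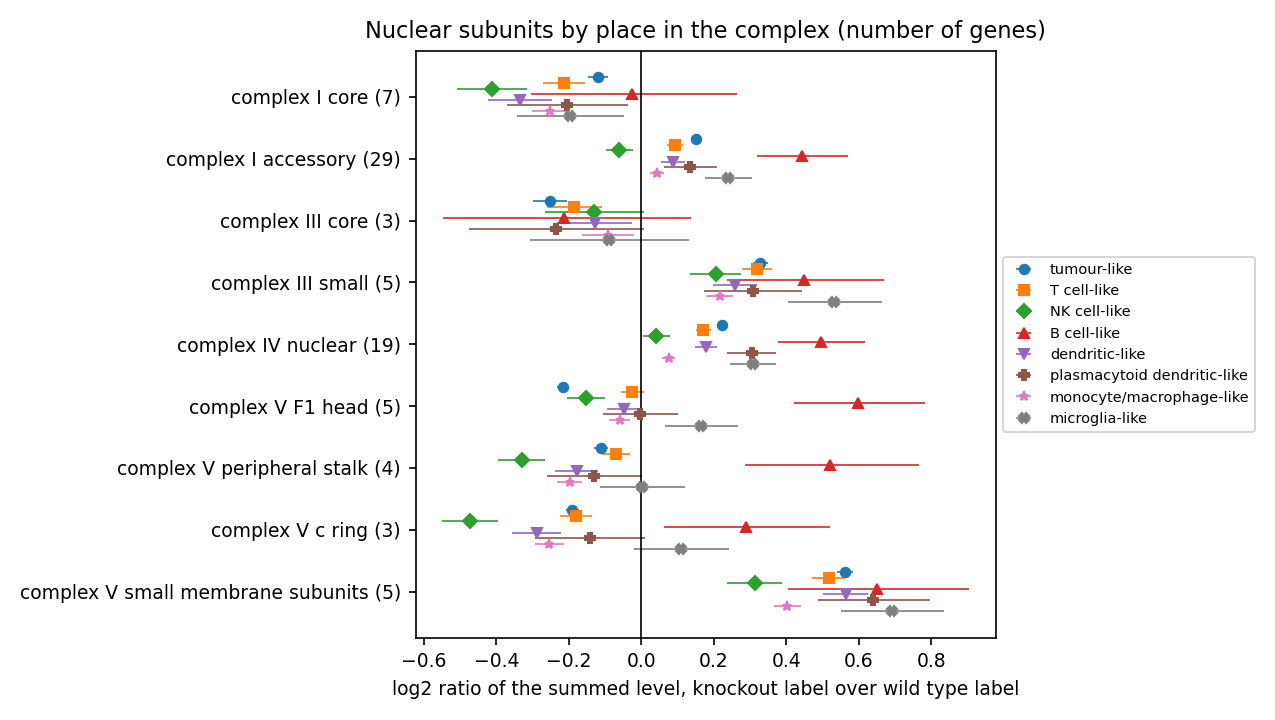
Log2 ratio of the summed level, knockout label over wild type label, for 9 groups of nuclear subunits (rows, number of genes in brackets) in the 8 classes (symbols), with exact 95% counting intervals. The complex I core and complex III core lie below 0 in all 8 classes, and the complex III small, complex IV and small complex V membrane subunits above 0 in all 8.

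Short members were more often higher under the knockout label than longer ones in most classes, as short genes of all kinds were, although longer members made up part of those that were higher. The comparison by transcript length was added after the values were seen. By the longest principal coding transcript of GENCODE M21, 22 nuclear members have at most 600 bases, and their sum was higher under the knockout label in all 8 classes (0.29 to 0.60), with 4145 and 5615 CPM in tumour-like cells (0.44). The other 67 summed to 17176 and 17272 CPM in tumour-like cells (0.01) and were higher in 4 of 8 classes. Taking instead the shortest coding transcript of each gene, the 46 members over 600 bases were higher in 2 of 8 classes, with log2 ratios of -0.10 in T cell-like and -0.11 in tumour-like cells, and included 0 of the 10 members that passed 1.5-fold in the latter.

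The difference between the labels in the whole nuclear sum therefore rested on the short members in 4 classes: without them the ratio was 0.01 in tumour-like, -0.02 in T cell-like, -0.08 in monocyte/macrophage-like and -0.05 in dendritic-like cells. In tumour-like cells 6 of 19 measured short members were at least 1.5-fold higher, and 36.4% of all short genes; of the 65 longer ones 4 were, and 10.5% of all longer genes. In T cell-like cells 5 of 17 short members passed and 21.0% of all short genes, and 1 of 65 longer ones and 4.55%. Short members passed 1.5-fold upward at rates at or below those of all short genes in NK cell-like (2 of 17, against 22.9%), B cell-like (9 of 17, against 56.3%), dendritic-like (3 of 17, against 26.4%), monocyte/macrophage-like (1 of 17, against 22.2%) and plasmacytoid dendritic-like cells (5 of 17, against 40.2%). In microglia-like cells 9 of 17 did, against 41.7%. Longer members passed more often than all longer genes in B cell-like (21 of 56, against 12.8%), microglia-like (8 of 62, against 4.55%) and plasmacytoid dendritic-like cells (6 of 58, against 5.52%), and not in NK cell-like (0 of 61, against 7.07%), dendritic-like (2 of 62, against 7.76%) or monocyte/macrophage-like cells (0 of 65, against 5.72%). Of the nuclear members measured in all 8 classes, 14 of 17 short and 15 of 56 longer ones were higher under the knockout label in every class, against 53.4% of all short and 4.22% of all longer genes. Lower in every class were 4 longer members (Ndufv1, Ndufv2, Ndufb10 and Uqcrc2), against 3.56% of all longer genes, and 0 short ones, although some of these values were within 0.05 of 0. Of the mitochondrial members measured in all 8 classes, 2 of 2 short and 0 of 9 longer ones were higher in every class. Lower in every class were 0 short and 2 longer ones, counting mt-Co2, which was level in B cell-like cells. Across members, Spearman's rho between transcript length and log2 ratio was -0.51 in tumour-like cells (97 members) and -0.52 in T cell-like cells (95 members), and -0.34 to -0.46 in the other 6 classes; over all genes it ran from -0.28 (B cell-like) to 0.18 (NK cell-like). Genes of 1 library pair share its depth and chemistry, so these are descriptions. None of the 10 core subunits of complexes I and III has a transcript of at most 600 bases and all 5 small membrane subunits of complex V have one, so length and place in the complex cannot be told apart for them. Why short genes were higher was not tested.

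**Figure D4:**
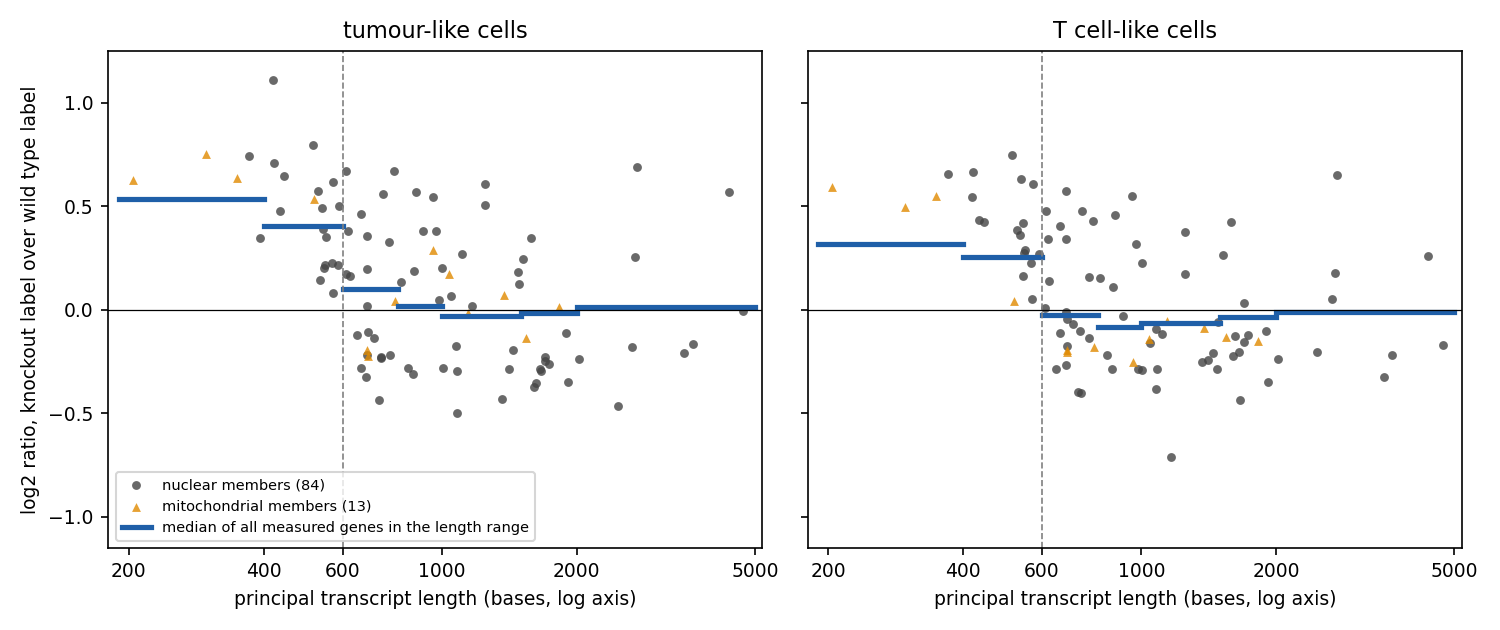
Log2 ratio (knockout label over wild type label) against principal transcript length in bases (log axis) for measured nuclear members (circles) and mitochondrial members (triangles) in tumour-like cells and in T cell-like cells, with the median of all measured genes per length range as blue bars and 600 bases as the dashed line. All 19 short nuclear members in tumour-like cells and all 17 in T cell-like cells lie above 0, and the blue bars of the short ranges do too.

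A few members marked single classes in both libraries. Cox6a2 (ENSMUSG00000030785, chr7:128205435-128206387, minus strand, GRCm38), the form of complex IV subunit 6A known from heart and skeletal muscle, had 416 and 734 CPM in plasmacytoid dendritic-like cells, from 225 and 1801 UMIs in 71.0% and 87.3% of cells. The next class was microglia-like cells with 19 and 27 CPM. B cell-like cells had none in 61 and 294 cells, of which 3 cells would be 4.92% and 1.02%. At medians of 3743 and 7090 UMIs this absence does not limit the share of cells that express the gene. Its ratio between the labels in plasmacytoid dendritic-like cells was 0.82 on the log2 scale. The widely expressed paralogue Cox6a1 was present beside it at 220 and 194 CPM. Cox6a2 was seen in 17.3% and 17.4% of tumour-like cells (13 and 15 CPM).

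Cox6b2 (ENSMUSG00000051811, chr7:4751792-4753094, minus strand, GRCm38), a form of subunit 6B known from testis, had 36 and 42 CPM in tumour-like cells, from 846 and 1411 UMIs in 51.6% and 54.7% of cells. In the other 7 classes it had at most 5.0 and 4.9 CPM, and a UMI in 6.8% and 6.3% of dendritic-like and 0% and 1.02% of B cell-like cells, whose medians were 15393 and 11962 and 3743 and 7090 UMIs. Cox6b1, printed above beside it, had 328 and 426 CPM in tumour-like cells. Cox7a1, the muscle form of subunit 7A, stayed at 1.7 and 2.2 CPM in tumour-like cells, and Cox7b2 gave 1 and 3 UMIs there.

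Cox4i2 and Ndufa4l2, which are known from pericytes and from low-oxygen responses, had high levels in a small mural-like class. In its 12 and 9 cells Cox4i2 had 417 and 629 CPM and Ndufa4l2 723 and 830 CPM. Cox4i2 was also seen in monocyte/macrophage-like cells, with 81 and 28 UMIs (9.6 and 1.9 CPM, log2 ratio -2.31, interval -2.98 to -1.67) in 8.7% and 2.8% of cells, against 0.6% and 0.4% of T cell-like cells, which had medians of 7668 and 8777 UMIs against 14863 and 13127. Within the cluster led by Adamdec1 it had 67 and 15 UMIs (-2.02) and within that led by Clec4d 14 and 13 (-1.93). Ndufa4l2 had no UMI in monocyte/macrophage-like cells of either library.

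Ndufa4 (chr6:11900292-11907497, minus strand, GRCm38), the complex IV subunit that Ndufa4l2 can take the place of, also differed by class. It had 499 and 563 CPM in tumour-like cells and 146 and 78 CPM in monocyte/macrophage-like cells (-0.91, interval -1.03 to -0.80), the lowest level of the 8 classes in both libraries, though under the wild type label B cell-like cells were within counting error of it (154 CPM from 39 UMIs). Within the 3 clusters its ratio was -0.87, 0.43 and -1.21, and the 0.43 comes from 38 and 163 UMIs (interval -0.09 to 0.98). It was higher under the knockout label in B cell-like cells (154 and 242 CPM, 0.65), with an interval of 0.18 to 1.16.

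Ndufb9 (chr15:58933756-58939488, plus strand, GRCm38), an accessory subunit of complex I, had 791 and 719 CPM in tumour-like cells and at most 251 and 207 CPM in any of the other 7 classes. With a class at 0 set to 3 UMIs, the 10 nuclear members with the widest range over the classes in both libraries were Cox6a2, Ndufaf4, Ndufb9, Ndufa5, Uqcr11, Ndufa12, Ndufb8, Ndufa4, Atp5g1 and Ndufb2, and all but Cox6a2 were highest in tumour-like cells in both. Cox6b2 is not among them because this limit is high in the shallow B cell-like class. Ndufa5 had 154 and 229 CPM there, Ndufa12 267 and 321 CPM, Ndufb8 476 and 410 CPM, Atp5g1 530 and 528 CPM and Ndufb2 108 and 161 CPM. Ndufb9 lies on chromosome 15 with Cox6c, Ndufa6 and Atp5g2. The median log2 ratio of tumour-like cells over the median of the other classes was 1.07 and 1.05 for these 4, 0.59 and 0.64 for the 76 nuclear members whose median in the other classes was at least 20 CPM in both libraries, 0.65 and 0.72 for all 214 such genes of chromosome 15 and 0.04 and 0.06 for all 5661 such genes. Member medians were higher still on chromosome 4 (1.259 and 1.203), chromosome 6 (1.244 and 1.401) and chromosome 10 (1.231 and 1.193). All such genes there had 0.131 and 0.151, 0.156 and 0.28, and 0.39 and 0.417. No other chromosome had higher member medians in both libraries. The part of the chromosome in these levels was not tested.

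**Figure D5:**
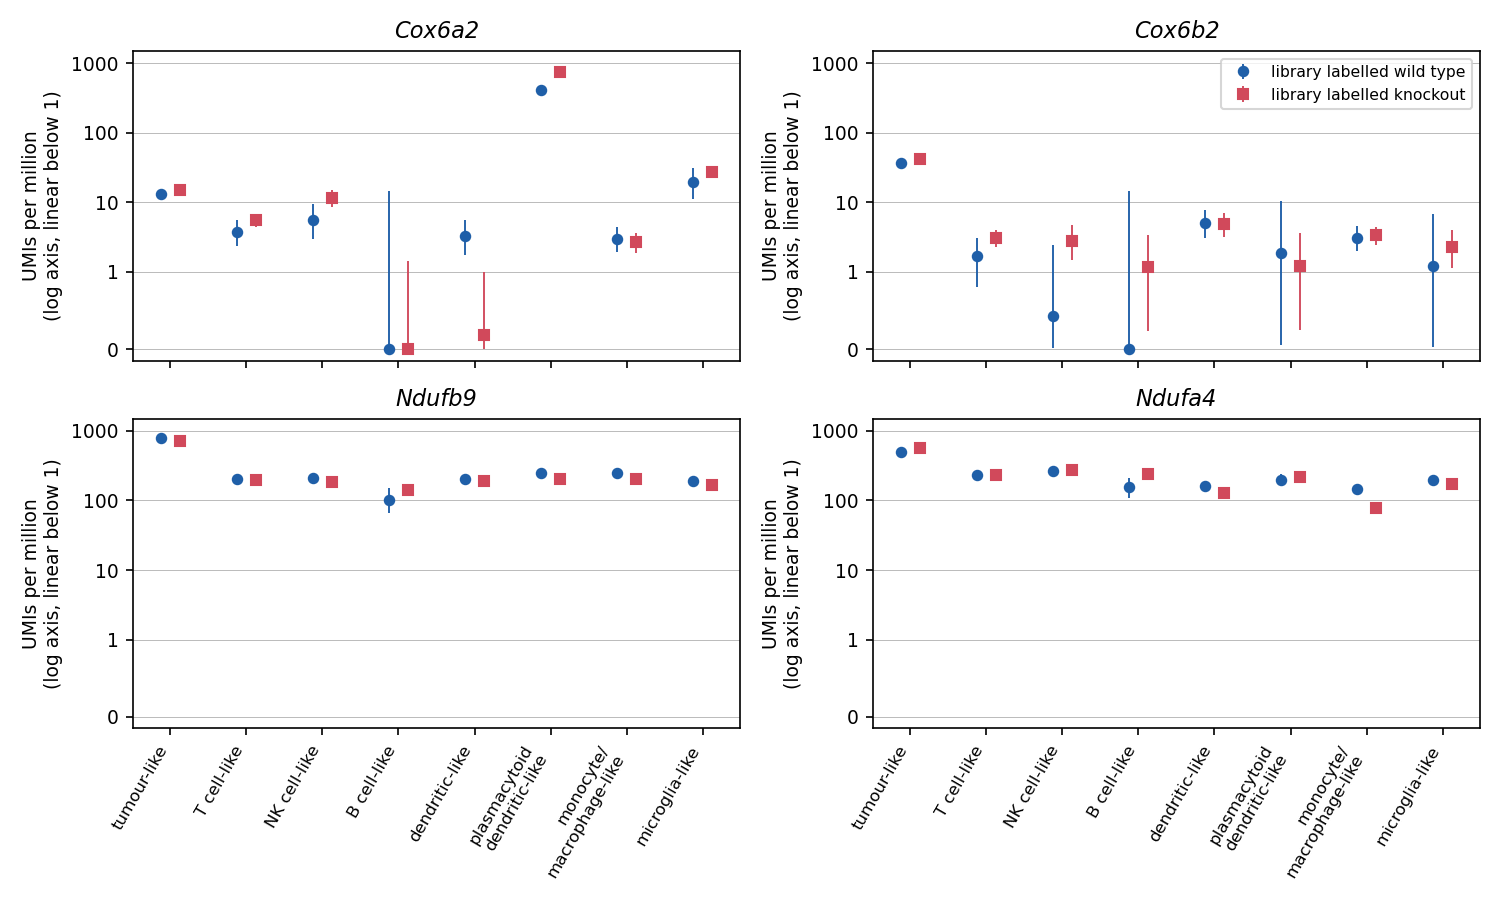
Level of Cox6a2, Cox6b2, Ndufb9 and Ndufa4 in CPM (log axis, linear below 1) in the 8 classes, one point per library with its exact 95% counting interval. Cox6a2 stands out in plasmacytoid dendritic-like cells (416 and 734 CPM), Cox6b2 and Ndufb9 in tumour-like cells, and Ndufa4 is lowest in monocyte/macrophage-like cells.

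The other genes of the pathway and of energy metabolism were counted in 8 lists. Of the 9 genes for succinate dehydrogenase (complex II) and the electron carriers, 0 were at least 1.5-fold higher or lower in tumour-like cells; Cycs, cytochrome c, had 264 and 298 CPM and Sdhd 92 and 72 CPM. The shares over all genes were 11.1% and 6.75%. NK cell-like cells had 1 higher and 3 lower of 9 (7.33% and 7.57% of all genes). None of the 17 genes of the tricarboxylic acid cycle passed in either direction in tumour-like, T cell-like (4.87% and 2.38% of all genes) or monocyte/macrophage-like cells (6.0% and 5.6%). NK cell-like cells had 0 higher and 2 lower of 16, and B cell-like cells 2 higher and 2 lower of 12 (13.7% and 11.5% of all genes). None passed in the dendritic-like, plasmacytoid dendritic-like or microglia-like cells. The median log2 ratio was -0.25 in tumour-like cells, where Mdh2 had 289 and 226 CPM, Idh3a 68 and 51 CPM (-0.42) and Sucla2 48 and 49 CPM. Among 29 assembly factors outside the symbol rule, 1 was higher and 0 lower in tumour-like cells: Cox17, the copper chaperone of complex IV, with 65 and 111 CPM (0.77); Uqcc2 had 170 and 247 CPM and Cox18 26 and 22 CPM.

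Of 23 genes for mitochondrial transcription and RNA handling 2 were higher and 0 lower in tumour-like cells, among them Mterf1a (3.5 and 5.8 CPM, 0.70), while Ssbp1 was level (162 and 160 CPM) and Fastkd5 had 3.6 and 2.6 CPM. For this list and those that follow, the tumour-like shares over all genes were 11.1% higher and 6.75% lower. Of 9 measured regulators of subunit genes 0 passed; Yy1 had 120 and 109 CPM, Ppargc1b 12 and 15 CPM and Myc 69 and 56 CPM. Of 10 measured carriers and coupling genes 0 passed in tumour-like cells (Slc25a3 1046 and 857 CPM, Vdac1 186 and 136 CPM, Ckmt1 2.6 and 3.7 CPM), and 5 of 9 were lower in NK cell-like cells (7.57% of all genes). The 78 mitochondrial ribosomal proteins had 2 higher and 0 lower in tumour-like cells, 1 higher and 22 lower of 73 in NK cell-like cells (7.33% and 7.57% of all genes), and 16 higher and 1 lower of 48 in B cell-like cells (13.7% and 11.5% of all genes); Mrpl52 had 99 and 183 CPM in tumour-like cells (0.89), Mrpl33 199 and 243 CPM and Mrpl20 142 and 98 CPM (-0.54).

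The list with the most genes past 1.5-fold in tumour-like cells was glycolysis and lactate export. There 0 of 16 genes were at least 1.5-fold higher and 10 lower (11.1% and 6.75% of all genes). In NK cell-like cells 0 were higher and 6 lower of 13 (7.33% and 7.57%), in monocyte/macrophage-like cells 4 higher and 0 lower of 16 (6.0% and 5.6%) and in B cell-like cells 5 higher and 0 lower of 12 (13.7% and 11.5%). Slc16a3, a lactate exporter, had 52 and 4.4 CPM in tumour-like cells (-3.55, interval -3.81 to -3.30), Gapdh 1453 and 1030.4 CPM (-0.50) and Hk1 39 and 36 CPM. The list summed to 4583 and 2999 CPM in tumour-like cells (-0.61), where the nuclear subunits of oxidative phosphorylation had a ratio of 0.10. Of the 16 listed genes 0 have a principal transcript of at most 600 bases. For the nuclear subunits over that length the ratio was 0.01, or -0.11 by the shortest coding transcript.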

How the data were processed

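Per the labels' protocols and the submitters' processing notes, the authors made UMI counts per gene and barcode with Cell Ranger 7.1.0 on a reference of human and mouse genes (mm10 is named) and deposited them as sparse matrices; Seurat 5.0.2 is also named, with no role given. Only mouse genes were used here. Members, gene lists and markers were chosen with earlier results of these data known. Cells had at least 500 mouse genes and at most 10% mitochondrial UMIs, and took a class where at least 3 of its markers, and at least 2 more than of the next class, had a UMI. This left 390 and 757 cells without a class. Scrublet marked 77 cells (expected number) and 164 cells (automatic threshold) as doublets; they were kept, and left out as an alternative. A count of 0 was set to 3 in ratios. Depth per class sets the intervals, which cover counting error only. Named are all 13 mitochondrial members, the isoform genes, the 4 highest and 4 lowest ratios per class, the 10 widest ranges over classes and, per list, the most abundant gene and the extremes in tumour-like cells; others named in the subunit groups and Cox6b2 in its own account of classes were chosen after their values were seen. Lengths and positions came from GENCODE M21, promoters from RefSeq GRCm38.p6; Cox6a2, Cox4i1, Cox4i2 and Ndufb9 are among the 16 nuclear members not matched there. The ratio script was tested on simulated data. Python 3.11.15, numpy 2.4.6, scipy 1.17.1, scanpy 1.11.5 and leidenalg 0.10.2 were used.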

Additional observations from a re-analysis of the deposited data

Results flagged for a closer look

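The nuclear subunit sum was lower under the knockout label in NK cell-like cells (log2 ratio -0.061) and higher in tumour-like cells, so the summed UMIs of these gated classes lay in opposite directions. The NK cell-like value was 0.023 with Leiden clusters and 0.035 as a mean over cells, and the difference between the classes was not tested. Ndufa4 passed 1.5-fold in opposite directions, at 0.65 in B cell-like cells and -0.91 in monocyte/macrophage-like cells, which was not tested either. Atp5g1 did so at -0.60 in NK cell-like cells and 0.66 in B cell-like cells, also untested. Human genes, which no comparison used, had 10781 UMIs under the wild type label (0.0198% of all UMIs) and 20272 under the knockout label (0.0196%), although both hosts and the implanted line are mouse; their source was not tested.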

How the results depend on the processing

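No paired analysis was possible because there was 1 library per group, and no replicate could be left out. The length splits, the sex-restricted cells and the equal weighting of clusters were chosen after seeing the data. In tumour-like cells the nuclear ratio (0.10) became 0.079 with ribosomal protein and mitochondrial genes out of the denominator, 0.12 as a mean over cells, 0.20 with clusters weighted alike, 0.0080 with principal transcripts over 600 bases only and -0.11 with shortest coding transcripts over 600 bases only; the mitochondrial ratio (-0.07) became -0.077 at a 5% mitochondrial limit, -0.089 with that denominator and -0.14 with clusters alike. In T cell-like cells the nuclear ratio (0.09) became 0.056 with Leiden clusters in place of gates, 0.12 as a mean over cells, 0.13 with clusters alike, 0.077 in cells with Y-linked and no Xist UMIs, and -0.021 and -0.10 under the length limits. Their mitochondrial ratio (-0.15) became -0.20 at a 20% limit, -0.17 with 1 marker more or without doublets, -0.19 with Leiden clusters, -0.14 as a mean over cells, -0.27 in the Y-linked cells and -0.12 with clusters alike. The 10 higher tumour-like members became 4 and 0 under the length limits, and the 0 lower became 2 with Leiden clusters. Classes with a higher nuclear sum (7) became 4 and 2 under the length limits, and those with a higher mitochondrial sum (1) became 2 with Leiden clusters and 0 as a mean over cells.

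In the 6 other classes 11 of 146 values turned: the nuclear ratio to 0.023 (Leiden) and 0.035 (mean over cells) in NK cell-like, to -0.051 and -0.13 (length limits) in dendritic-like, to -0.00019 (shortest transcripts) in plasmacytoid dendritic-like, to -0.018 (mean over cells), -0.084 and -0.17 (length limits) and -0.079 (Y-linked cells, 508 and 140) in monocyte/macrophage-like and to -0.27 (Y-linked cells, 64 and 86) in microglia-like cells. The plasmacytoid dendritic-like mitochondrial ratio turned to 0.032 with Leiden clusters. A sum counted as turned only where its main interval left out 0. The B cell-like mitochondrial ratio, above 0 in the main sums with an interval that spans 0, is therefore not among the 11. It was -0.12 as a mean over cells. For named members a value counted as turned only where the main ratio was at least 1.5-fold, so smaller ratios could not turn. By that rule 0 of 2133 values turned, and 150 lay outside their counting interval. The causes were not tested, except that the length limits act by leaving out short members. B cell-like, plasmacytoid dendritic-like and microglia-like values are limited by 61 to 80 cells under the wild type label.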

Other observations

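AA467197, a paralogue of Ndufa4 known to take its place in complex IV of inflamed macrophages, was looked at after the Ndufa4 values were seen. It had 227 and 630.5 CPM in monocyte/macrophage-like cells (log2 ratio 1.48, interval 1.40 to 1.55), where Ndufa4 had 146 and 78 CPM, and 174 and 419 CPM in dendritic-like cells (1.27), where Ndufa4 had 163 and 129 CPM. In NK cell-like cells it was lower under the knockout label, at 174 and 86 CPM (-1.01), where Ndufa4 had 262 and 276 CPM. In T cell-like cells it was nearly level, at 139 and 146 CPM, as was Ndufa4 at 231 and 232 CPM. The pair did not move oppositely everywhere. Tumour-like cells had log2 ratios of 1.16 for AA467197 and 0.17 for Ndufa4. B cell-like cells had 1.61, from 5 and 157 UMIs, and 0.65. Microglia-like cells had 1.11 and -0.18, the latter with an interval that spans 0 (-0.42 to 0.07). Plasmacytoid dendritic-like cells had 0.06 and 0.11, and both intervals span 0.

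Oligodendrocyte-like cells, with 36 and 107 cells too few for the main comparisons, had higher mitochondrial sums than any of the 8 classes (34354 and 34823 CPM) beside nuclear sums of 11916 and 12794 CPM, a mitochondrial-to-nuclear ratio of 2.88 and 2.72. Neuroblast/neuron-like cells (18 and 82 cells) had ratios of 1.57 and 1.43.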
